A study of Mus musculus with 6 samples.

Results

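DNA methylation levels of induced pluripotent stem cells made with 4 transcription factors (4F-iPSCs) were compared with those of mouse embryonic stem cells (mESCs), CpG by CpG. A CpG entered the comparison when it had at least 10 reads in each of the 4 libraries, 2 of 4F-iPSCs and 2 of mESCs, and its level was the share of its reads that were methylated. These were 992822 CpGs of the 1531642 with a read in any of the 6 libraries of the series. The other 2 libraries, of C-iPSCs induced with small molecules, are given beside a result where they place it.

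The 4F-iPSCs were male and at passages 5 to 10. They came from OG2-MEFs, fibroblasts with a green fluorescent reporter of Oct4, which had been infected with retroviruses carrying Oct4, Sox2, Klf4, and c-Myc, and fluorescent colonies were picked for expansion. The mESCs were the male line E14 at passages 20 to 30. The C-iPSCs were at passages 5 to 10. By the study's methods they also came from OG2-MEFs, and the small molecules used included VPA, DZNep, and 5-Aza-2′-deoxycytidine. By the labels, all of these cells grew on mitomycin C-treated MEF feeders with LIF and both 2i inhibitors, CHIR99021 and PD0325901, and the feeders were taken away, on plates coated with gelatin, before collection, whereas the study's methods name such plates for culture and no feeders. Whether DNA of feeder cells was left in any library was not tested. The OG2-MEFs came from a background of 129S4/SvJaeJ, C57BL/6J, and CBA/CaJ mice, whereas E14 is a single cell line, so cell type, genetic background, and passage cannot be told apart here. The labels do not say whether the replicates were separate cultures or colonies, and the tests therefore measure the spread between these libraries, which may be technical.

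In mammals, most methylated cytosines stand before a guanine. Maintenance methylation by Dnmt1 and Uhrf1 copies the mark at each division, whereas Tet enzymes oxidize it, and mESCs grown in 2i lose methylation over much of the genome while promoters rich in CpGs stay unmethylated in either state. Somatic cells are highly methylated outside such promoters, and reprogramming rewrites that pattern. Reduced representation bisulfite sequencing (RRBS) reads the fragments that the enzyme MspI cuts at CCGG, so CpG-rich sequence is over-represented. Depth was between 53694199 reads on CpGs in mESC replicate 2 and 96534037 in 4F-iPSC replicate 1, and the median over the compared CpGs was between 42 and 73 reads per library. Molecular identifiers are not given in the sources used here, so copies of 1 molecule may count as several reads.

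Genes that mark the pluripotent state were looked at first. The promoter of Pou5f1, which encodes Oct4, had levels of 12.1% and 22.4% in 4F-iPSCs and 6.39% and 9.81% in mESCs over 6 CpGs, and that of Zfp42, another gene of the pluripotent state, had 7.79% and 15.7% against 4.13% and 6.33% over 7 CpGs. Both were low in every library, and 4F-iPSC replicate 2 was the highest at both. On mitochondrial DNA, 7.90% of the reads of this library were called methylated, against 3.33% in 4F-iPSC replicate 1, 5.39% in mESC replicate 1, and 3.29% in mESC replicate 2. It also had 12.3% of the compared CpGs at levels between 10% and 30%, against 9.51% in 4F-iPSC replicate 1. The mESC libraries had more there, with 16.0% in replicate 1 and 12.9% in replicate 2. The part of this in small differences at low levels was not tested. Nanog, Dppa3, Tdgf1, and most fibroblast genes had too few compared CpGs at their promoters for a value.

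A CpG was a strong gain when each 4F-iPSC library exceeded each mESC library by more than 33.3 percentage points, and a strong loss when each lay that far below. Gains, losses, and starting levels are thus relative to mESCs, and no library of the original fibroblasts was compared. Where at least 3 strong gains followed each other in steps of up to 300 bp, uninterrupted by a strong loss, they were joined into a gain region, and loss regions were built likewise. Windows of 30 bases from 8 such regions are shown, each the stretch of its region with the most CpGs, because they include the 3 gain and 3 loss regions with the most strong CpGs and 2 promoters below 10% in both mESC libraries. They are the plus strand of GRCm38, read 5′ to 3′, with the CpGs in capitals.

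Zfp316 exon, gain, chr5:143253824-143253853: CGCGCGccCGtgCGcCGtgaggtgCGCGCG
Dazl promoter, gain, chr17:50293335-50293364: aaacctcCGCGtaaggaatCGCGgcctcCG
Repin1 exon, gain, chr6:48597497-48597526: ggCGcactcaCGCGtgcactcCGgCGaaCG
Lhx9 promoter, gain, chr1:138841787-138841816: CGCGccCGgactggtccttacCGCGtCGCG
Rpl10l promoter, gain, chr12:66283888-66283917: aatttggctCGgCGtagggcctCGatcaCG
Intergenic, loss, chr9:123924778-123924807: cCGCGgggcCGagcCGggaCGCGgatCGCG
Intergenic, loss, chr4:14845726-14845755: CGcCGCGCGctgctgacaCGcaggcacCGg
Sox30 intron, loss, chr11:46014496-46014525: caccCGcagaccacCGgcCGCGgggtctCG

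At the Dazl window all 5 CpGs were compared, and their mean level was 76.3% and 82.8% in the 4F-iPSC libraries and 22.9% and 25.2% in the mESC libraries. The Zfp316 window holds 9 compared CpGs at 35.2% and 33.7% in 4F-iPSCs against 0.911% and 2.21% in mESCs. At the Sox30 window the order was the opposite, with 11.98% and 13.5% in 4F-iPSCs and 56.6% and 71.5% in mESCs over 4 compared CpGs.

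The 4F-iPSCs were more methylated than the mESCs. Over the compared CpGs the mean level was 32.1% and 33.4% in the 4F-iPSC libraries and 20.2% and 22.1% in the mESC libraries, a difference of 11.6 percentage points. Each 4F-iPSC library was above each mESC library, and the gap was larger than the spread between replicates of either type (SD 0.971 in 4F-iPSCs and 1.33 in mESCs, n = 2 each). With 2 libraries against 2, a two-sided exact permutation test cannot give a p below 0.333, and it gave p = 0.333. Both 4F-iPSC libraries were above both mESC libraries at 444289 CpGs (44.8% of the CpGs tested) and below both at 25737 (2.59%), and at the remaining 522796 CpGs the types overlapped. With 1 library left out the number of CpGs below was between 37052 and 100549, since fewer libraries must then differ, and with reads thinned to 10 per CpG it was 10617. Strong gains numbered 60594 (6.10%) and strong losses 134 (0.0135%). At strong gains, the median level was 83.2% and 82.4% in 4F-iPSCs and 30.6% and 36.7% in mESCs. At strong losses it was 12.8% and 13.5% in 4F-iPSCs and 67.9% and 70.3% in mESCs.

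A strong gain needs room above the mESC level and a strong loss needs room below it. By its mESC levels, 12.7% of the compared CpGs could not be a strong gain and 74.0% could not be a strong loss. A quasi-binomial model of the reads used a spread that limma estimated over CpGs together, the same for every CpG. At a Benjamini-Hochberg adjusted p under 0.05 and the same size of difference, the model called 134503 CpGs higher in 4F-iPSCs (13.5%) and 242 lower (0.0244%). It called 60333 of the strong gains (99.6%) and all 134 strong losses, which is no independent support, since it used the same reads and size of difference. The number of gains moved by over 1.5 times with an mESC library left out. Without mESC replicate 2, strong gains numbered 139570, and without mESC replicate 1 the model called 82343. The strong losses were 284 without mESC replicate 1, 250 without 4F-iPSC replicate 2, and 214 without mESC replicate 2, since fewer libraries must then differ.

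The difference was small at promoters, within 1 kb of a transcript start, and wide elsewhere. Over 531511 promoter CpGs the mean level was 6.54% and 8.24% in 4F-iPSCs and 4.94% and 4.87% in mESCs, and 1.03% of these CpGs were strong gains. Each 4F-iPSC library was above each mESC library here, with a gap of 2.49 percentage points (SD 1.21 in 4F-iPSCs and 0.0481 in mESCs, n = 2 each; exact permutation test, p = 0.333). Introns had 61.7% and 62.8% against 38.0% and 42.0%, and intergenic CpGs 66.6% and 67.6% against 41.6% and 45.9%. Strong gains made up 11.3% of intron CpGs and 13.4% of intergenic CpGs, and 90.9% of all strong gains lay outside promoters. Exons outside promoters gained less, 19.4 percentage points on average, with 10.3% strong gains. In soft-masked sequence outside promoters, which is mostly repeats, the levels were 74.8% and 75.8% against 48.3% and 52.9%, and 14.2% of the CpGs were strong gains. The share of strong gains was higher with distance from a transcript start, from 0.794% within 200 bp to 15.5% beyond 50 kb.

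CpG density separated the levels further. CpGs with no other CpG within 100 bp had means of 81.9% and 84.4% in 4F-iPSCs and 55.4% and 58.8% in mESCs, a difference of 26.1 percentage points. With 1 to 3 other CpGs the difference was 26.4 percentage points, and 12.3% of the CpGs were strong gains. With 4 to 8 other CpGs the difference was 23.2 percentage points, and 13.4% were strong gains. This class was 23.1% of the compared CpGs and held 50.8% of all strong gains. With 9 to 12 other CpGs the difference was 12.6 percentage points. CpGs with 21 or more others nearby, 29.5% of the compared CpGs, had 1.95% and 3.34% in 4F-iPSCs and 2.11% and 1.87% in mESCs, and here the cell types overlapped.

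**Figure D1:**
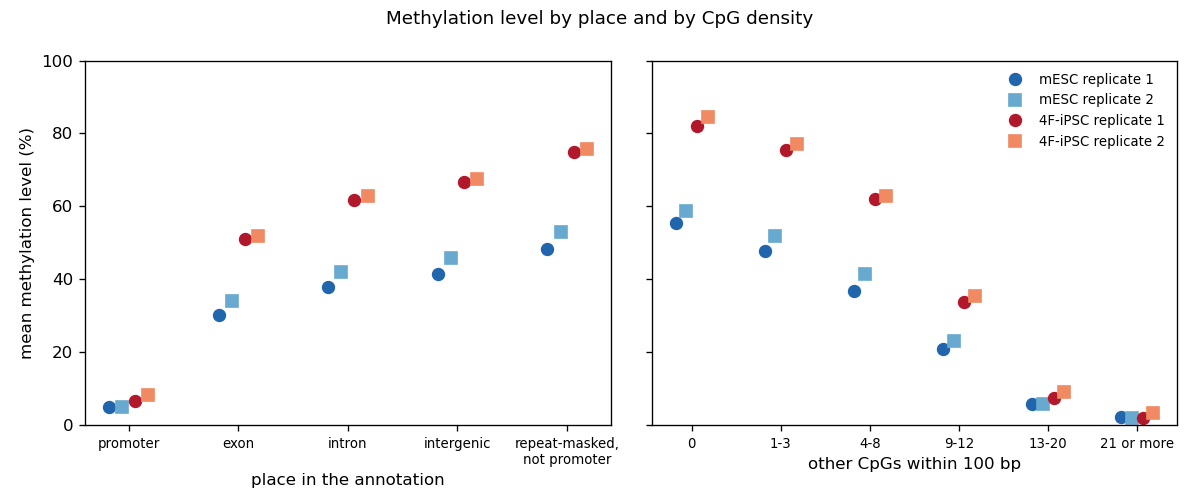
Mean methylation level (%) of each 4F-iPSC and mESC library over the compared CpGs, by place in the annotation (left) and by the number of other CpGs within 100 bp (right); each point is 1 library. The 4F-iPSC libraries stand 19.4 to 24.7 percentage points above the mESC libraries in exons, introns, intergenic sequence, and repeats, and the types meet at the densest CpGs.

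The change was then followed by mESC starting level. Because a CpG picked for a low level in a library tends to be higher in any other library, CpGs were binned by 1 mESC library and the 4F-iPSCs were compared with the other one. At CpGs of 40% to 60% in mESC replicate 1, the 4F-iPSCs were 26.4 percentage points above mESC replicate 2. At CpGs of 40% to 60% in mESC replicate 2, they were 34.9 percentage points above mESC replicate 1, and the mean of both ways was 30.6. The 4F-iPSC libraries differed little here. CpGs between 40% and 50% in mESC replicate 1 stood at 78.9% and 80.3% in the 4F-iPSC libraries and at 52.0% in mESC replicate 2, and both 4F-iPSC libraries were above that library at 94.2% of them.

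The gap was narrower toward both ends of the range. At CpGs between 80% and 90% in mESC replicate 1, the 4F-iPSC libraries had 93.2% and 94.7% and mESC replicate 2 had 80.3%. At CpGs between 80% and 90% in mESC replicate 2, they had 92.8% and 93.5% and mESC replicate 1 had 73.1%. At 488516 CpGs up to 5%, they had 2.02% and 2.22% against 1.07%, and both 4F-iPSC libraries were above mESC replicate 2 at 17.0% of these CpGs and below it at 15.6%. Between 10% and 20%, the 4F-iPSC libraries themselves parted, with 25.9% in replicate 1 and 30.8% in replicate 2 against 15.3% in mESC replicate 2. The highest share of strong gains was at starting levels of 30% to 40%, at 26.9% of CpGs binned by mESC replicate 1 and 34.8% of those binned by mESC replicate 2. Here the binning library enters the call, and no CpG at 66.7% or more in an mESC library can be called. The rule itself therefore shapes where this share peaks.

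**Figure D2:**
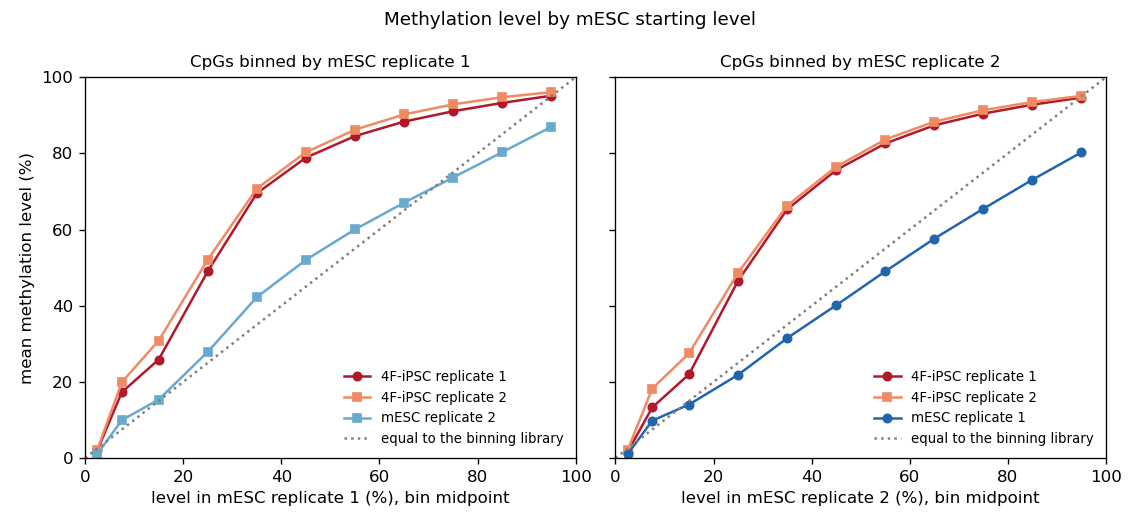
Mean methylation level (%) of the 4F-iPSC libraries and of the mESC library not used for binning, against the level in the binning mESC library; the dotted line marks equal levels. Both 4F-iPSC curves lie close together and bend above the mESC curve, with 78.9% and 80.3% against 52.0% at CpGs of 40% to 50% in mESC replicate 1.

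CpGs that were almost unmethylated in mESCs were seldom strong gains. Of 507321 CpGs under 10% in both mESC libraries, 2534 were strong gains (0.499%). In promoters these were 345 of 426014 (0.0810%), and in intergenic sequence 965 of 24070 (4.01%). The mean of these intergenic CpGs was 8.31% and 7.92% in 4F-iPSCs and 1.74% and 2.05% in mESCs, so that most of them were low in both types.

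The autosomes differed little. Promoter CpGs hold between 51.9% and 57.9% of the compared CpGs of an autosome, so the chromosomes were compared outside promoters. Among the autosomes, the difference between 4F-iPSCs and mESCs there was lowest on chromosome 11, at 20.8 percentage points, and highest on chromosome 16, at 23.4. Strong gains made up between 10.3% of these CpGs on chromosome 19 and 13.4% on chromosome 16. On the Y chromosome these values were higher, at 24.6 percentage points and 17.5%. The X chromosome of these male cells was more methylated outside promoters than the autosomes in every library, by 7.50 and 8.07 percentage points in 4F-iPSCs and by 7.35 and 7.03 in mESCs. The types differed in this gap by 0.593 percentage points (exact permutation test, two-sided, with p at its lowest possible value of 0.333), and it was 0.307 without 4F-iPSC replicate 2. Over all compared CpGs the X chromosome stood 4.12 percentage points further above the autosomes in 4F-iPSCs than in mESCs, where promoters hold 39.9% of its CpGs. On the Y chromosome, 1136 CpGs had 79.1% and 80.5% in 4F-iPSCs and 52.6% and 57.5% in mESCs, and 17.7% were strong gains. Of the 134 strong losses, 32 lay on chromosome 9, which held 51709 of the 992822 compared CpGs. Of these strong losses on chromosome 9, 22 lay in a single region of 324 bp, where 4F-iPSCs had 0.0965 times the scaled depth of mESCs, as described below.

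Strong gains stood close to each other. Of those with a compared CpG within 100 bp, 50.8% had a strong gain as a neighbor, whereas 8.41% of all compared CpGs with such a neighbor did. They formed 5404 gain regions with 21993 CpGs, 36.3% of all strong gains. The median region had 3 strong CpGs over 101 bp, at 82.0% in 4F-iPSCs and 33.7% in mESCs. At least 10 strong CpGs were found in 99 regions. Promoters were touched by 652 regions, 1424 were mostly soft-masked, and 77 had a mean below 10% in both mESC libraries. The count was 17360 without mESC replicate 2, 8852 without 4F-iPSC replicate 2, and 8253 without 4F-iPSC replicate 1. Strong losses formed 9 regions with 59 CpGs, none of them in a promoter, and between 14 and 28 regions with 1 library left out.

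The gain region with the most strong CpGs lay in an exon of Zfp316, a zinc finger gene, at chr5:143252981-143254260. Of its 113 compared CpGs 56 were strong gains, and the mean level was 36.6% and 51.3% in 4F-iPSCs and 2.31% and 3.25% in mESCs. A second region of Zfp316, at chr5:143254780-143255206, had 35.1% and 50.6% against 3.97% and 3.83%, with 18 strong gains. At both, 4F-iPSC replicate 2 was above replicate 1 by about 15 percentage points, and every mESC library was near 0. The C-iPSC libraries, at 2.76% and 2.42% in the first region, stood with the mESCs.

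Repin1, another zinc finger gene, had the same order. Its exon at chr6:48597402-48597805, where the annotated genes Gm44965 and Gm45021 overlap it, was at 51.8% and 63.4% in 4F-iPSCs, 7.62% and 9.92% in mESCs, and 11.9% and 9.68% in C-iPSCs, with 25 strong gains. The promoter of Odf2l, which encodes a relative of a sperm tail protein, had 43.7% and 46.7% against 4.64% and 2.57% at chr3:145118510-145119062, and 20 of its 39 compared CpGs were strong gains. C-iPSCs had 16.4% and 19.5% there.

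The promoter of Dazl, an RNA-binding protein of germ cells, held 28 strong gains among 32 CpGs at chr17:50293148-50293621. Its levels were 69.4% and 70.1% in 4F-iPSCs and 15.0% and 22.0% in mESCs, with C-iPSCs between them at 37.0% and 44.3%. The 4F-iPSC replicates differed here by less than the mESC replicates. Farther from the region centre on the low side, CpGs of the same promoter were near 0 in most libraries, so that the gain ended within the promoter on that side. On the high side higher levels were still seen, and a CpG 824 bp from the centre had 79.5% and 77.4% in 4F-iPSCs against 26.1% and 29.6% in mESCs.

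The other gain regions with the most strong CpGs began from higher mESC levels or lay outside promoters. In an exon of Camta1, a calmodulin-binding transcription activator, at chr4:151144836-151145492, 4F-iPSCs had 93.3% and 95.5% and mESCs 14.7% and 18.97%. An intergenic region at chrX:150019485-150020227, nearly all of it soft-masked, had 95.1% and 94.1% against 23.2% and 30.1%. A soft-masked intron region of Pkhd1, the gene of the ciliary protein fibrocystin, at chr1:20486320-20486832, had 93.8% and 93.2% against 21.9% and 34.1%. In each of these the 4F-iPSC levels were above 90% and the mESC levels well below the midpoint. The intergenic regions among those with the most strong CpGs also included chr11:98067415-98067752 (69.5% and 73.3% against 13.7% and 17.8%), chrX:90671258-90671878 (90.2% and 87.9% against 36.0% and 39.1%), chr4:140497154-140497471 (85.1% and 82.4% against 17.3% and 31.0%), and chr1:102605169-102605745 (93.6% and 88.7% against 29.9% and 32.2%).

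Further regions that were below 10% in both mESC libraries held fewer strong CpGs, and several are given here. The promoter of Lhx9, a LIM homeobox factor of the gonad and limb, had 76.2% and 75.1% in 4F-iPSCs, 4.32% and 6.63% in mESCs, and 32.8% and 34.7% in C-iPSCs at chr1:138841453-138841904. That of Rpl10l, a ribosomal protein gene used in the testis, had 54.7% and 68.9% against 3.71% and 7.18% at chr12:66283877-66284019. An intergenic region at chr10:8545016-8545141 had 92.1% and 92.0% against 9.92% and 9.23%. At chr7:63802992-63803143, also intergenic, the 4F-iPSC libraries had 90.4% and 89.1%, whereas the mESCs had 4.34% and 7.35% and the C-iPSCs 6.19% and 5.62%. The promoter of Nefm, a neurofilament gene, at chr14:68123720-68123859 was at 57.0% and 49.3% in 4F-iPSCs, 4.85% and 9.94% in mESCs, and 3.76% and 9.37% in C-iPSCs. At Nefm and at the chromosome 7 region the C-iPSC libraries were as low as the mESC libraries, and at Lhx9 they were in between.

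**Figure D3:**
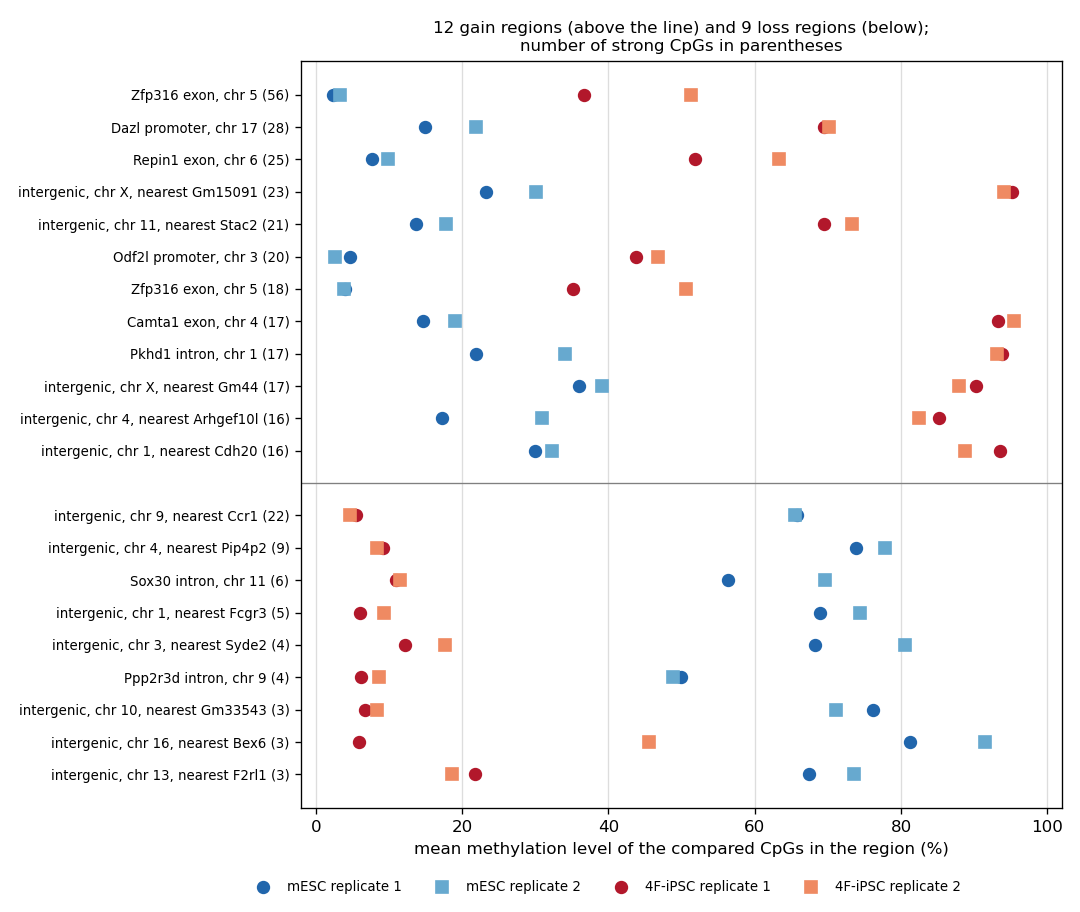
Mean methylation level (%) of each library in the 12 gain regions with the most strong CpGs and in all 9 loss regions; each point is 1 library, and the number of strong CpGs is in parentheses. The 4F-iPSC libraries lie to the right of the mESC libraries in the gain regions and to their left in the loss regions, and they are widest apart from each other at the chromosome 16 loss region, at 5.88% and 45.5%.

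The longest loss lay between genes on chromosome 9, at chr9:123924637-123924960, with the chemokine receptor gene Ccr1 as the nearest coding gene. Over 23 compared CpGs, 22 of them strong losses, its level was 5.49% and 4.68% in 4F-iPSCs and 65.7% and 65.4% in mESCs, and C-iPSCs had 73.5% and 73.8%. The replicates of each type agreed within a percentage point. The depth moved with it: a CpG of this region had on average 82.0 and 73.8 reads in the 4F-iPSC libraries, but 734 and 417 in the mESC libraries and 934 and 1086 in the C-iPSC libraries. Scaled to the median depth of each library, 4F-iPSCs had 0.0965 times the depth of mESCs, and the part of this in the result was not tested. Across all strong losses, 26 of 134 (19.4%) had a scaled depth more than 3-fold below that in mESCs, against 0.133% of all compared CpGs. With CpGs of a depth ratio beyond 3-fold left out, a setting chosen after seeing the data, 105 strong losses and 8 loss regions remained.

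In the other loss regions the scaled depth of 4F-iPSCs was between 0.544 and 1.42 times that of mESCs. At chr4:14845726-14845797 all 9 compared CpGs were strong losses, with 9.21% and 8.38% in 4F-iPSCs, 73.8% and 77.7% in mESCs, and 38.4% and 45.6% in C-iPSCs. An intron region of Sox30, a transcription factor gene of male germ cells, at chr11:46014366-46014545, had 10.98% and 11.5% against 56.3% and 69.5%, with a scaled depth of 0.544 times that in mESCs. Intergenic CpGs near Fcgr3, at chr1:171045129-171045194, had 6.03% and 9.27% against 69.0% and 74.4%. In these regions the 4F-iPSC libraries were at 11.5% or less. Near Syde2 (chr3:145978128-145978235) the levels were 12.2% and 17.6% against 68.3% and 80.5%. In an intron of Ppp2r3d, a phosphatase subunit gene (chr9:124440030-124440103), they were 6.16% and 8.70% against 49.9% and 48.8%. At chr10:95880228-95880265 they were 6.66% and 8.36% against 76.2% and 71.0%, and at chr13:95554811-95554831, near F2rl1, 21.8% and 18.6% against 67.4% and 73.6%. The region at chr16:32200599-32200769 had 5.88% in 4F-iPSC replicate 1 but 45.5% in replicate 2, against 81.2% and 91.4%, where a CpG had on average between 18.5 and 31 reads in these libraries. The C-iPSC libraries were above both 4F-iPSC libraries at 95.4% of the 131 strong losses where they had enough reads, against 3.54% of all CpGs compared in this way. The strong losses were chosen for low levels in these 4F-iPSC libraries, so this share describes the chosen CpGs.

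**Figure D4:**
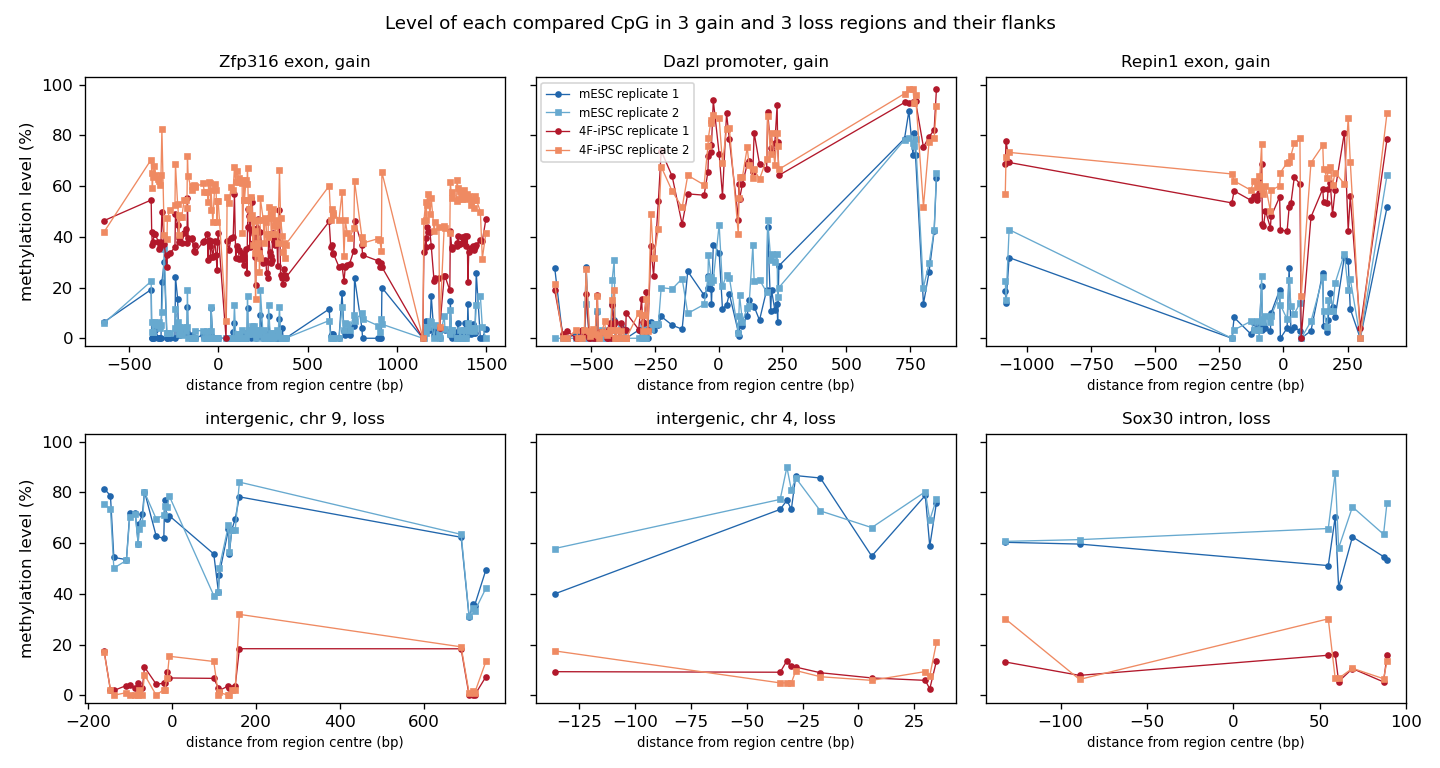
Methylation level (%) of each compared CpG by distance (bp) from the centre of 3 gain regions (top) and 3 loss regions (bottom), with flanks; points are CpGs and colors are libraries. In the Zfp316 exon the mESC CpGs lie mostly near 0 and the 4F-iPSC CpGs mostly between 20% and 70%, and in the loss regions the 4F-iPSC CpGs lie below the mESC CpGs.

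Genes were compared by the mean level of their promoter and, separately, of their body outside promoters, where at least 5 CpGs were compared. A promoter or body was called when limma gave a Benjamini-Hochberg adjusted p under 0.05 and the means differed by more than 10 percentage points. Limma shares the spread over all genes, so its p-values can be very small with 2 libraries a type. Of 17424 promoters, 4F-iPSCs were higher at 2317 (13.3%) and lower at 16 (0.0918%). Among protein-coding genes it was 867 of 13151 (6.59%), and among processed pseudogenes 592 of 733 (80.8%). The share called differed with the mESC level of the promoter, from 50 of 12975 promoters (0.385%) under 5% to 476 of 2517 (18.9%) between 5% and 20%, 685 of 790 (86.7%) between 20% and 40%, 808 of 821 (98.4%) between 40% and 60%, and 298 of 321 (92.8%) over 60%. The median pseudogene promoter began at 41.6% in mESCs and the median coding promoter at 2.73%.

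Most of the promoters with the widest gains belonged to noncoding genes and pseudogenes. Gm32885, a long noncoding RNA gene, had 88.0% and 80.7% in 4F-iPSCs and 4.12% and 8.10% in mESCs over 5 CpGs. The pseudogenes AC113104.2, Gm8319, and Gm3786 and the noncoding gene Gm40987 differed by 77.4, 73.1, 66.0, and 70.6 percentage points. The coding gene 1700018B08Rik, which shares its 13 CpGs with Gm27045, had 80.8% and 79.1% against 12.2% and 11.1%. Tuba3a, an alpha-tubulin gene of the testis, had 82.8% and 79.7% against 11.7% and 20.4%. Every one of these promoters was at 20.4% or less in both mESC libraries and above 70% in both 4F-iPSC libraries.

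The other coding genes with the widest gains were taken by the same order among coding genes alone. Aurkc, a kinase of meiosis, had 77.8% and 66.5% in 4F-iPSCs and 6.44% and 11.8% in mESCs. Fkbp6, which acts in meiosis, had 71.6% and 85.0% against 19.5% and 28.4%, and Pdha2, the testis form of a pyruvate dehydrogenase subunit, 94.8% and 96.7% against 36.6% and 47.1%. The others were Hspb3, a small heat shock protein gene, Hcar1, a lactate receptor gene, and Rtp2, a receptor transport gene, with differences of 61.6, 56.2, and 55.6 percentage points.

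The 16 lower promoters differed less. Guca1b, a gene of photoreceptors, had 20.8% in 4F-iPSC replicate 1 and 50.2% in replicate 2, against 59.3% and 61.7% in mESCs. Without 4F-iPSC replicate 1 it was not called, at a difference of −10.3 percentage points. With a library left out, 1 type had 1 library, so the spread between replicates came from the other type alone. The shared promoter of Miip and Fv1, the latter a restriction gene of retroviral origin, had 31.4% and 25.4% against 46.3% and 51.1% over 23 CpGs. Without 4F-iPSC replicate 2 it was not called, though the difference was −17.3 percentage points, against −20.3 with all 4 libraries. The noncoding gene 2810429I04Rik had 4.54% and 9.56% against 26.3% and 28.4%, and the pseudogene Ppp1r2-ps3 had 6.01% and 6.74% against 19.5% and 32.7%. These kept the libraries of the types apart. The shared promoter of Gm19684 and the class I histocompatibility gene H2-T10 (17.3% and 13.7% against 26.4% and 34.1%) was not called without 4F-iPSC replicate 2. Its difference was then −13.0 percentage points, against −14.8 with all 4 libraries. That of Gm49227 lost its call without 4F-iPSC replicate 1 or mESC replicate 1. Of the lower promoters named here, that of 2810429I04Rik held 1 strong loss and the others none.

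Gene bodies were higher as a rule. Of 12082 bodies, 4F-iPSCs were higher at 10581 (87.6%) and lower at 9 (0.0745%), and the median difference was 25.1 percentage points. The widest gains were in Dctd, the gene of dCMP deaminase (88.9% and 87.5% in 4F-iPSCs, 16.3% and 12.4% in mESCs), the noncoding genes 1700011C11Rik and D830044D21Rik, with 68.0 and 64.1 percentage points, Crp, which encodes C-reactive protein (88.1% and 92.6% against 24.0% and 24.5%), and Gjb5, a connexin gene (96.1% and 91.5% against 25.5% and 37.2%). Each of these rested on 5 to 10 CpGs. The lower bodies were led by Sox30, with 26.5% and 28.1% against 56.5% and 65.4% over 10 CpGs (limma, adjusted p = 1.6e-24), which include its loss region. AC115789.4 and Gm13857 differed by −21.6 and −20.4 percentage points. Acnat1, an acyltransferase gene, and the pseudogene Cyp2c53-ps differed by −13.4 and −13.0 and lost their calls without 4F-iPSC replicate 1.

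Groups of genes were then looked at by lists of known roles. The lists were chosen with earlier results of these data known, so their shares describe the chosen genes and are no independent support. Genes used in germ cells, many of which are kept silent elsewhere by promoter methylation, had 20 of 23 measured promoters higher in 4F-iPSCs and none lower, against 13.3% of all promoters. Their median was 47.0% in both 4F-iPSC libraries and 14.3% and 16.7% in mESCs. After Tuba3a and Fkbp6 the widest differences were at Rpl10l (47.0% and 55.4% against 4.07% and 7.19%), Tuba3b (87.0% and 86.1% against 34.7% and 56.5%), Tex101 (89.4% and 85.0% against 40.1% and 53.4%), and D1Pas1 (48.4% and 53.0% against 14.3% and 11.4%). Read by starting level, 10 of the 12 germline promoters between 5% and 20% in mESCs were called, where 18.9% of all promoters were. All 9 germline promoters over 20% in mESCs were called, where 86.7% to 98.4% of all promoters were. The starting levels still differed between 5% and 20%, with a median of 13.4% at these germline promoters and 7.68% at all promoters. The members that were not called were Ddx4, Dmrtb1, and Stag3, with differences of 8.05, 7.55, and 2.60 percentage points.

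Imprinted genes, methylated on the allele of one parent, had 16 of 32 measured promoters higher and none lower, against 13.3% of all promoters that were higher. Nap1l5 had 54.7% and 70.7% in 4F-iPSCs and 26.7% and 25.8% in mESCs. The shared promoter of Peg10 and Sgce had 59.7% and 60.7% against 20.2% and 30.4%. Zrsr1 had 46.9% and 58.7% against 22.9% and 18.9%, Nnat 46.8% and 57.3% against 22.1% and 19.7%, and Airn 55.2% and 62.9% against 30.8% and 35.2%. In mESCs these promoters were between 18.9% and 35.2%, and in 4F-iPSCs between 46.8% and 70.7%. Read by starting level, 13 of the 15 imprinted promoters between 20% and 40% in mESCs were called, where 86.7% of all promoters were. Under 5% it was 0 of 9 and between 5% and 20% it was 2 of 5, where 0.385% and 18.9% of all promoters were called. Between 40% and 60% it was 1 of 2 and over 60% it was 0 of 1, where 98.4% and 92.8% were. Peg13 stood out on the other side, with 65.7% and 70.5% in 4F-iPSCs and 77.9% and 78.3% in mESCs, and was not called (difference −10.02 percentage points, limma, adjusted p = 0.225).

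**Figure D5:**
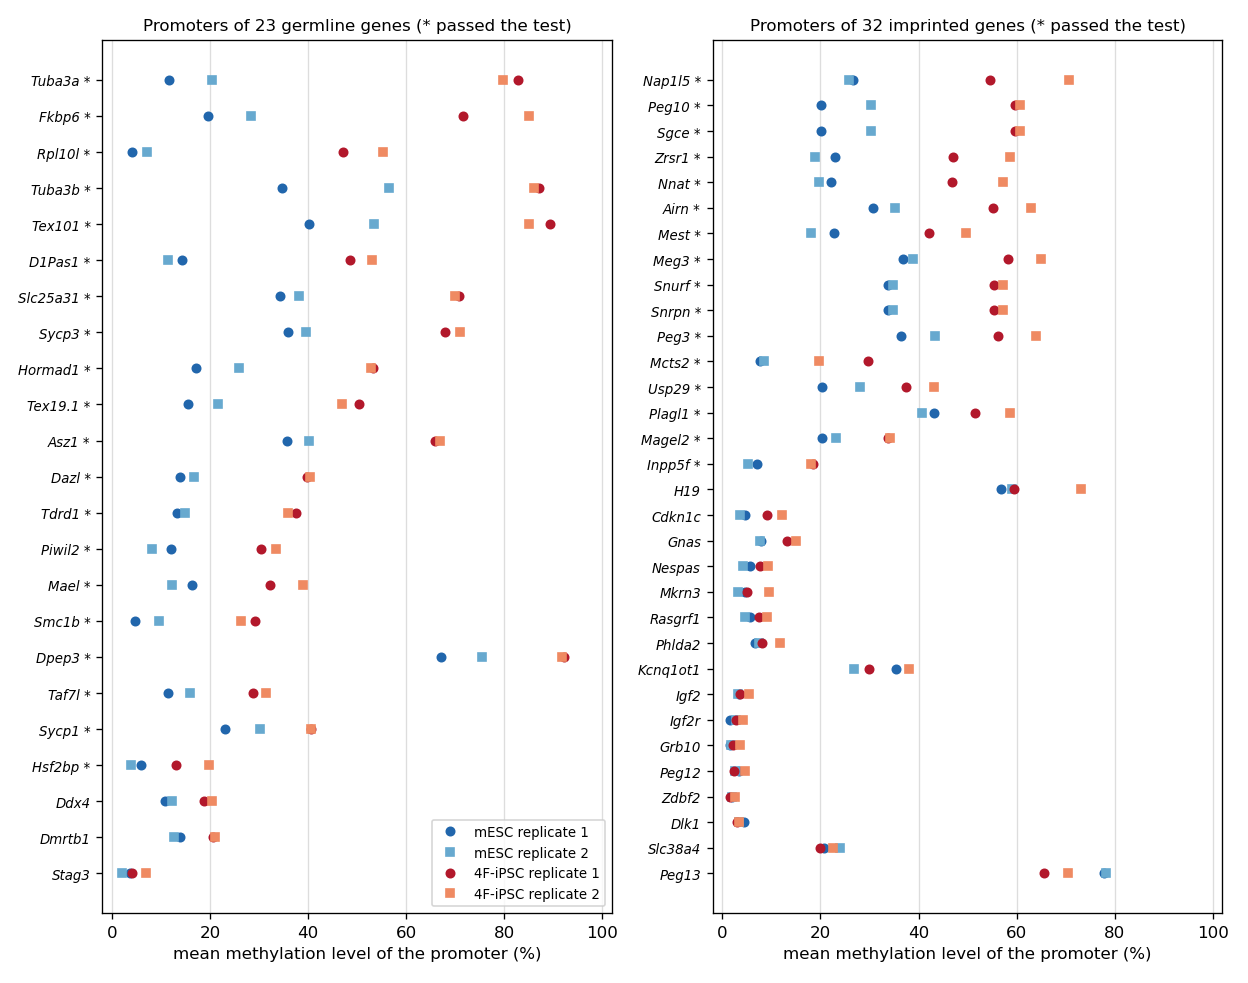
Mean promoter methylation level (%) of each library at 23 germline genes (left) and 32 imprinted genes (right), ordered by the difference; each point is 1 library and an asterisk marks promoters that passed the test. Of the germline promoters 20 carry an asterisk, and at imprinted promoters that do, 16 in number, the 4F-iPSC libraries lie above the mESC libraries.

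The other lists were given by their counts. Limma called none of 16 pluripotency promoters, 6 fibroblast promoters, and 14 housekeeping promoters in either direction, with 2, 1, and 0 of them at an unadjusted p under 0.05, and none on a scale of log2 ratios of methylated to unmethylated shares. In mESCs 12, 5, and 13 of these promoters were under 5%, where 0.385% of all promoters were called. The median pluripotency promoter had 2.62% and 4.41% in 4F-iPSCs and 2.65% and 2.41% in mESCs. Pou5f1 and Zfp42, given above, had the widest differences of this list. Their adjusted p was 0.0014 and 0.012 (limma), and they were not called because the differences, 9.15 and 6.52 percentage points, were under the size limit of 10. Without 4F-iPSC replicate 1 both were called, with 14.3 and 10.5 percentage points, and Pou5f1 also without mESC replicate 2, with 10.9. Among 29 transcription factors of lineages, Nkx2-5, a factor of the heart, was called (22.0% and 30.1% against 16.1% and 14.8%), and it was not called without 4F-iPSC replicate 2 (6.57 percentage points), without mESC replicate 2 (9.97), or with promoters of 0.5 kb to each side (9.70). Of these 29 promoters 20 were under 5% in mESCs and 9 were between 5% and 20%, where 0.385% and 18.9% of all promoters were called. Of 17 genes of the methylation machinery, Tet1, which oxidizes methylated cytosine, was called (39.1% and 45.2% against 28.7% and 20.7% over 5 CpGs). Without 4F-iPSC replicate 2, where the spread came from the mESC libraries alone, Tet1 was not called, at 14.3 percentage points against 17.4 with all 4 libraries. It was the only one of the 17 between 20% and 40% in mESCs, where 86.7% of all promoters were called. Dnmt1, Dnmt3a, Dnmt3b, and Uhrf1 had promoters under 7% in every library. The only call among 4 trophoblast genes was Elf5, whose promoter is methylated in embryonic lineages and not in trophoblast, and which was at 55.4% and 54.5% in 4F-iPSCs and 26.0% and 29.9% in mESCs. Elf5 alone of the 4 was between 20% and 40% in mESCs, where 86.7% of all promoters were called. Of 3 promoters of genes of differentiated tissues 2 were higher in 4F-iPSCs. In mESCs 1 of these was between 40% and 60% and 1 over 60%, where 98.4% and 92.8% of all promoters were called. The promoter of Krt5 was not called without 4F-iPSC replicate 2, at 26.5 percentage points against 27.0 with all 4 libraries.

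In their bodies, the lists differed in how many genes were called. Of 9 fibroblast genes measured in their body, 8 were higher in 4F-iPSCs, among them Dcn (85.5% and 88.2% against 43.9% and 51.7%), Thy1 (80.3% and 73.8% against 41.7% and 40.7%), and Col1a1 (69.9% and 67.9% against 29.7% and 38.0%), where 87.6% of all bodies were higher. Of 12 bodies of the methylation machinery 10 were higher, with Dnmt3l at 78.1% and 82.1% against 39.2% and 52.3% and Uhrf1 at 61.3% and 64.3% against 30.2% and 33.6%. Of 14 pluripotency bodies 8 were higher, and of 3 housekeeping bodies none (none of these 3 at an unadjusted p under 0.05). Of 28 bodies of lineage transcription factors 9 were higher, and their median was 15.8% and 16.8% in 4F-iPSCs and 8.98% and 9.66% in mESCs.

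Beside both types, the C-iPSC libraries had mean levels between them over the strong gains. At the 57843 strong gains where all libraries had at least 10 reads, the mean level was 80.98% and 80.03% in 4F-iPSCs, 55.3% and 65.2% in C-iPSCs, and 30.3% and 35.0% in mESCs. Both C-iPSC libraries were below both 4F-iPSC libraries at 89.0% of them, against 31.3% of all CpGs compared in this way. The strong gains were chosen for high levels in these 4F-iPSC libraries, so these figures describe the chosen CpGs.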

How the data were processed

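RRBS libraries of 4F-iPSCs and mESCs, 2 each, were analysed, with 2 C-iPSC libraries beside them. Per the submitters' notes and the study's methods, the authors cut DNA with MspI, aligned read pairs to mm10 with BSMAP 2.90, and kept uniquely mapped pairs. The authors deposited, for each CpG, the count of reads and the count of methylated reads, unnormalized, both strands together. The deposited methylated fraction served only as a check, and differed from the quotient of the counts by at most 0.0005. Conversion and trimming filters are those of the authors. All 1531292 CpGs on chromosomes were CG in GRCm38. The members and gene lists were chosen with earlier results of these data known.

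Levels were compared with Python 3.11.15, SciPy 1.17.1, and limma 3.58.1 in R 4.3.3. The quasi-binomial model took its dispersion from the 2 libraries of a type with limma's squeezeVar, and it was not allowed below 1. The prior came from CpGs at levels between 0.1 and 0.9. This prior had infinite degrees of freedom, so 1 dispersion of 2.08 was used for every CpG. The replicate spread of a single CpG therefore did not enter its p-value. Gene means were arcsine-transformed for limma, with a trend. Both were tested on simulated data. Places came from the GENCODE vM21 basic annotation, with promoters of 1 kb to each side, and promoters took precedence over exons, exons over introns, and introns over intergenic sequence. Named were the 12 gain regions with the most strong CpGs, all loss regions, the 8 promoters and 5 bodies that differed most in each direction, and at most 6 members of each list. Genes named beyond this rule, and the gain regions with a low mESC level, were chosen after their values were seen. Replicate numbers shared between the types were not used as pairs. Alternatives were another read minimum, thinned reads, other differences, other tests, other promoters, and each library left out.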

Additional observations from a re-analysis of the deposited data

How the results depend on the processing

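The mean difference between 4F-iPSCs and mESCs kept its direction in every alternative, between 10.7 and 14.0 percentage points, with p at the lowest value the design allows, and the change at intermediate mESC levels was between 30.0 and 31.3 percentage points with either 4F-iPSC library left out or with 20 reads, while binning by mESC replicate 1 or 2 alone gave 26.4 and 34.9. The numbers of called CpGs and regions moved with the rule. With thinning to 10 reads per CpG, consistent gains and losses numbered 279364 and 10617. A difference of 0.2 gave 186882 strong gains, 457 strong losses, 25507 gain regions, and 48 loss regions, and a difference of 0.5 gave 7079, 49, 450, and 5. At least 5 CpGs per region left 1307 gain and 4 loss regions, and Fisher's exact test on summed reads gave 17165 and 25. With at least 10 CpGs, 731 promoters and 6779 bodies were higher, as fewer genes could be tested. With each library left out in turn, consistent losses were between 37052 and 100549, strong gains between 81685 and 139570, strong losses between 198 and 284, gain regions between 7779 and 17360, loss regions between 14 and 28, and gains of the quasi-binomial model between 82343 and 145187. All counts but the last are higher there because fewer libraries must differ.

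The replicate numbers pair no samples by the labels. The correlation of the replicate differences of both types across CpGs was −0.215. With the replicate block, a Cochran-Mantel-Haenszel test called 137942 CpGs higher and 250 lower, and limma 2294 promoters higher and 16 lower. Crossed numbers, added after seeing the data, gave 137939, 250, 2309, and 16.

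Of 169 named genes and regions, 142 kept their direction and call (regions, their value within 1 SD) in every alternative. The direction turned only for genes that were not called, with these lowest and highest values over the libraries left out in turn, in percentage points: the promoters of Dppa4 (−1.81 and 5.72), Twist1 (−0.0573 and 2.02), Zeb1 (−0.145 and 1.49), Fbn1 (−0.796 and 1.08), Tfap2c (−0.407 and 1.86), and Gapdh (−0.779 and 3.47), and the bodies of Ywhaz (−0.324 and 2.33) and Actb (−1.90 and 0.802). The Actb body also turned without mESC replicate 1 (0.0962) and the Dppa4 promoter without mESC replicate 2 (−0.753). With 20 reads the promoters of Zeb1 (−0.168) and Fbn1 (−0.0303) turned. With 20 reads per library, 816939 CpGs were left, with 49527 strong gains and 111 strong losses.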

Other observations

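Families of genes were also counted by symbol. The keratin family had 15 of 22 promoters higher in 4F-iPSCs, with a median of 69.0% against 37.8%, where 13.3% of all promoters and 86.7% of those between 20% and 40% in mESCs were higher. Olfactory receptors had 11 of 13, with a median of 86.4% against 54.0%, where 98.4% of all promoters between 40% and 60% in mESCs were higher. All 5 measured genes of the X-linked Rhox homeobox family were higher, with a median of 61.8% against 23.9%, where the share between 20% and 40% was 86.7%. Protocadherins had 10 of 28, with a median of 10.3% in 4F-iPSCs against 4.38% in mESCs. Zinc finger genes of the Zfp family had 11 of 273, and Hox genes 3 of 42, with medians of 2.82% and 3.37% in mESCs. For these last families, the share of all promoters that were higher was 0.385% under 5% in mESCs and 18.9% between 5% and 20%.

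In their bodies, 47 of 53 protocadherins and 136 of 162 Zfp genes were higher in 4F-iPSCs, near the 87.6% of all bodies. Hox genes were called at 3 of 28 bodies, with a median of 10.1% in 4F-iPSCs against 6.52% in mESCs. Genes of differentiated tissues were higher in all 7 measured bodies, among them Afp, the fetal serum protein gene, with 75.2% and 70.0% in 4F-iPSCs and 21.8% and 35.6% in mESCs.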
